A study of Mus musculus with 6 samples.

Results

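The elastic fibre genes studied here are a list of 10: elastin (Eln), the fibrillins Fbn1 and Fbn2, the fibulins Fbln1, Fbln2, Fbln5, Efemp1 and Efemp2, the elastin microfibril interfacer Emilin1 and the microfibril-associated glycoprotein Mfap2. A member was measured by the probe set that carried its symbol alone. Of the 10 genes, 8 had such a probe set, 1 each, and all 8 passed the filter on dim signals, among 16487 genes tested in all. Fbn1 and Efemp2 had none and were not analysed here. The arrays measured total RNA of the gastrocnemius, a calf muscle, from male mice aged 12 weeks. There were 3 wild type mice and 3 mice labelled as homogenous SPARC knockouts, and both genotypes carry the strain label B6;129S-Sparctm1Hwe/J. The study set out to compare metabolic gene expression in muscle with and without SPARC, a secreted matricellular protein that binds collagen. Each array was taken as 1 mouse, since the design text speaks of single mice. Litter, cage and day of hybridisation are not among the labels.

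Elastic fibres let tissues stretch and recoil. Fibrillins assemble into microfibrils, on which tropoelastin, the soluble elastin monomer, is deposited and cross-linked by lysyl oxidases. Fibulins and emilin 1 link elastin, microfibrils and cells, and microfibrils also hold latent TGF-beta in the matrix. In skeletal muscle, elastic fibres lie in the connective tissue sheaths, in tendon and in vessel walls rather than inside the muscle fibres. In whole muscle, fewer cells of a type and less RNA per cell cannot be told apart.

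Across the 8 genes no difference between the genotypes passed the test, and the knockout arrays departed from wild type in different directions. Fbln2 alone was higher in every knockout array than in every wild type array. Knockout array 3 carried the highest value of Eln, Fbn2, Mfap2 and Emilin1 and the lowest of Fbln1, Fbln5 and Efemp1. Values below are log2 intensities, where a difference of 1 is a doubling. They are comparable between arrays for a gene, but not between genes, since probe sets differ in response. Differences are knockout minus wild type, with standard errors (SE) and p-values from limma, adjusted over all 16487 genes.

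Sparc itself read 11.80, 11.73 and 11.87 in the wild type arrays and 6.74, 6.46 and 5.83 in the knockouts, so every array bore out its genotype label. The labelled tissue was borne out as well: all 9 markers of skeletal muscle fibres were at log2 intensities of 11.51 or more on every array. The summed intensity of these 9 markers was lower in every knockout (59799 to 66506) than in every wild type (66649 to 67008). Without overlap, 6 of the 9 were lower and 2 higher, against 2283 and 1831 of all 16487 genes. Median intensity per array was 40.5 to 44.7. On the first principal component of all genes the wild types had scores of -16.8 to -15.8 and knockout arrays 1, 2 and 3 scores of 26.5, 2.45 and 19.8, so that array 2 was the nearest to wild type.

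The stretches upstream of 4 members are printed as examples of different patterns between arrays, chosen after the values were seen. Fbln2 was higher in all knockouts, Mfap2 and Emilin1 were highest in knockout array 3, and Efemp1 was lowest there. Each stretch is the 250 bases before the most upstream RefSeq start in the table (GRCm38.p6), on the gene's own strand. Fbln2 lies at chr6:91212514-91212763 (+), Mfap2 at chr4:141010174-141010423 (+), Emilin1 at chr5:30913536-30913785 (+) and Efemp1 at chr11:28852955-28853204 (+). Capitals mark matches on either strand to the GC box (GGGCGG), the TATA box (TATAAA), the AP-1 site (TGANTCA), the Smad element (CAGAC) or the CArG box, the site of serum response factor.
Fbln2: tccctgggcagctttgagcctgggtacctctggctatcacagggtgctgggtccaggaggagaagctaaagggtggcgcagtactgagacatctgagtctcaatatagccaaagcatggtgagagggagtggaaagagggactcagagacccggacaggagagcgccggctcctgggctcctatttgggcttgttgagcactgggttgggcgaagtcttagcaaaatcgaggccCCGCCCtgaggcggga
Mfap2: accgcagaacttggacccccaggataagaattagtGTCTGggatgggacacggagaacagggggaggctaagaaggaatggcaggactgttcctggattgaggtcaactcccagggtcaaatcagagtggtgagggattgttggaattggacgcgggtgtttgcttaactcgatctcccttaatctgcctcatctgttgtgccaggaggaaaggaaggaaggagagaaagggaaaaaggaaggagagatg
Emilin1: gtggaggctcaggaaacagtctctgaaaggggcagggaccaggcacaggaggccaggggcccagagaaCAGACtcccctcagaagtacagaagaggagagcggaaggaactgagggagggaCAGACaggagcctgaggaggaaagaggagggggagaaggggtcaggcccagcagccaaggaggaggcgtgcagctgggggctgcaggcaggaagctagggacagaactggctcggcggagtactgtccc
Efemp1: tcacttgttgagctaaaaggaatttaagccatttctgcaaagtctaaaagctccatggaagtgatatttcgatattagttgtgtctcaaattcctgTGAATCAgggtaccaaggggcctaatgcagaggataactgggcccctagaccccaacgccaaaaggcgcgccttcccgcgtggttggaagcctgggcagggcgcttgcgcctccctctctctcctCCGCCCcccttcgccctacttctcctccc

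Fbln2 held 1 GC box, Mfap2 1 Smad element, Emilin1 2 Smad elements, and Efemp1 1 GC box and 1 AP-1 site. Windows were used for 6 of the 8 measured genes. For members, windows on 1 chromosome were left out, though they stay among all windows counted below. Of the other two with a window, Fbln1 held 2 Smad elements and Fbln5 held 2 GC boxes. Among all 32851 windows of this length, 32.7% held a GC box, 42.2% a Smad element, 6.75% an AP-1 site, 12.4% a TATA box and 1.47% a CArG box, and no TATA box or CArG box was found in the 6. A match describes these letters and is not evidence that a factor binds.

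Eln encodes tropoelastin. It read 6.55, 6.54 and 6.50 in wild type arrays 1, 2 and 3 and 6.54, 6.65 and 7.07 in knockout arrays 1, 2 and 3. Knockout array 1 lay among the wild types, array 2 just above them, and array 3 clearly above all others. In linear intensity, array 3 stood at 134.2 against 90.5 to 94.0 in wild type. The mean difference was 0.22 ± 0.14 (SE), with a 95% interval of -0.095 to 0.54 (limma adjusted p = 0.448). Without knockout array 3 it was 0.063.

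**Figure D1:**
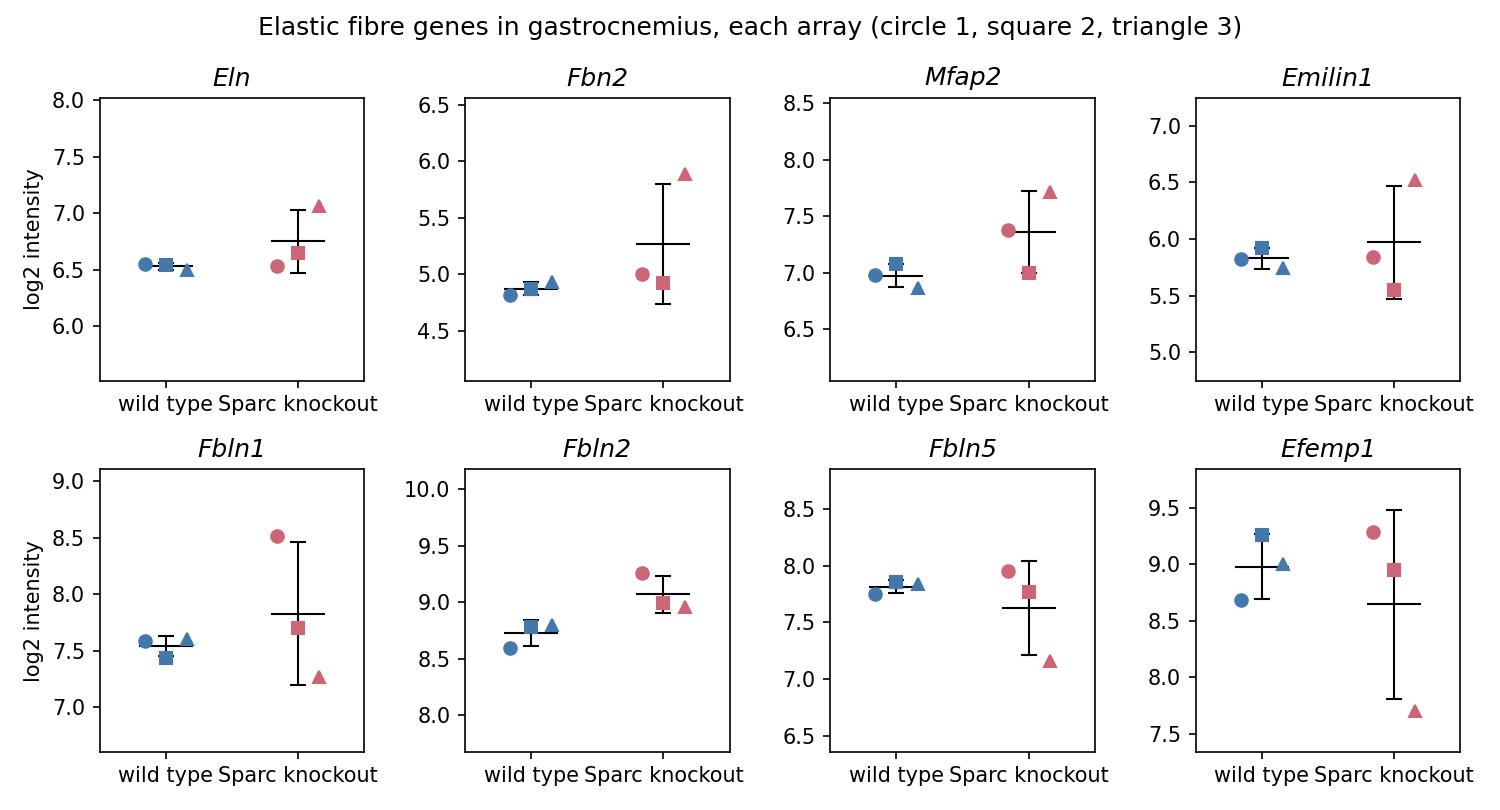
Log2 intensity (vertical axes, all of the same span) of the 8 elastic fibre genes in 3 wild type and 3 Sparc knockout arrays; symbols mark array number, horizontal bars the group mean and error bars 1 SD. The groups overlap in every panel but that of Fbln2, and the knockout points are spread more widely than the wild type points in all 8.

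The microfibril genes showed the same leaning on knockout array 3. Fbn2 encodes fibrillin 2, which predominates in developing microfibrils. Its wild type values were 4.82, 4.87 and 4.94, and its knockout values 5.00, 4.93 and 5.88. Knockout array 2 fell within the wild type range and array 3 stood about 1 unit above it. The difference was 0.40 ± 0.23 (SE; limma adjusted p = 0.405), and 0.088 without knockout array 3. Its levels lay not far above the dim filter at 3.90.

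Mfap2 encodes a small glycoprotein bound to fibrillin microfibrils, and with Fbln2 it was the only member at an unadjusted p under 0.05 by limma. It read 6.99, 7.08 and 6.87 in wild type and 7.38, 6.995 and 7.72 in knockout arrays 1, 2 and 3. Knockout arrays 1 and 3 were above every wild type, whereas array 2 was within their range. The difference was 0.39 ± 0.17 (SE), a 1.31-fold higher mean, with a 95% interval of 0.0003 to 0.77 (limma adjusted p = 0.271). Without knockout array 2 it was 0.57 and just passed (limma adjusted p = 0.0499), and without knockout array 3 it was 0.21 (adjusted p = 0.477). In the fit without knockout array 2, 6.17% of all genes passed, against 0.995% with all arrays.

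Emilin1 encodes a glycoprotein found at the interface of elastin and microfibrils. It read 5.82, 5.92 and 5.74 in wild type and 5.84, 5.55 and 6.52 in the knockouts. Knockout array 1 was within the wild type range, array 2 below it and array 3 above it. The difference of 0.14 ± 0.22 (SE; limma adjusted p = 0.793) changed sign to -0.13 without knockout array 3.

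The fibulins, calcium-binding glycoproteins with repeated EGF-like modules, split. Fbln2, which binds elastin, fibrillin and basement membrane proteins, read 8.59, 8.78 and 8.80 in wild type and 9.26, 8.99 and 8.96 in knockout arrays 1, 2 and 3. All knockouts lay above all wild types, with array 1 farthest. Wild type muscle averaged 8.73 ± 0.11 and knockout muscle 9.07 ± 0.16 (SD, n = 3 each). The difference of 0.34 ± 0.11 (SE), 1.27-fold, had a 95% interval of 0.088 to 0.60 and the smallest p of the list, but did not pass over all genes (limma adjusted p = 0.159). It remained between 0.25 and 0.40 when any 1 array was left out.

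Fbln1, which binds fibronectin and elastin, read 7.59, 7.44 and 7.60 in wild type and 8.52, 7.70 and 7.27 in knockout arrays 1, 2 and 3. Knockout array 1 was about 1 unit above wild type and array 3 below all of them. The difference of 0.29 ± 0.26 (SE; limma adjusted p = 0.628) was -0.058 without knockout array 1 and 0.56 without array 3.

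Fbln5 and Efemp1 were the 2 members with a negative mean difference. Fbln5, which tethers tropoelastin to microfibrils and to integrins and is required for elastic fibre assembly in mice, read 7.75, 7.85 and 7.84 in wild type and 7.96, 7.77 and 7.16 in the knockouts. Only knockout array 3 lay below wild type, and array 1 lay above. The difference was -0.19 ± 0.18 (SE; limma adjusted p = 0.657), and 0.049 without knockout array 3.

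Efemp1, also called fibulin 3, varied most. Its wild type values of 8.68, 9.26 and 9.0 already spanned 0.57, and its knockout values were 9.29, 8.95 and 7.70. Knockout array 1 lay just above the highest wild type and array 2 within their range, and array 3 read an intensity of 208.4 against 411.2 to 611.3 in wild type. The difference was -0.33 ± 0.36 (SE; limma adjusted p = 0.684), and 0.14 without knockout array 3. Its 95% interval ran from -1.14 to 0.48, the widest of the list.

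**Figure D2:**
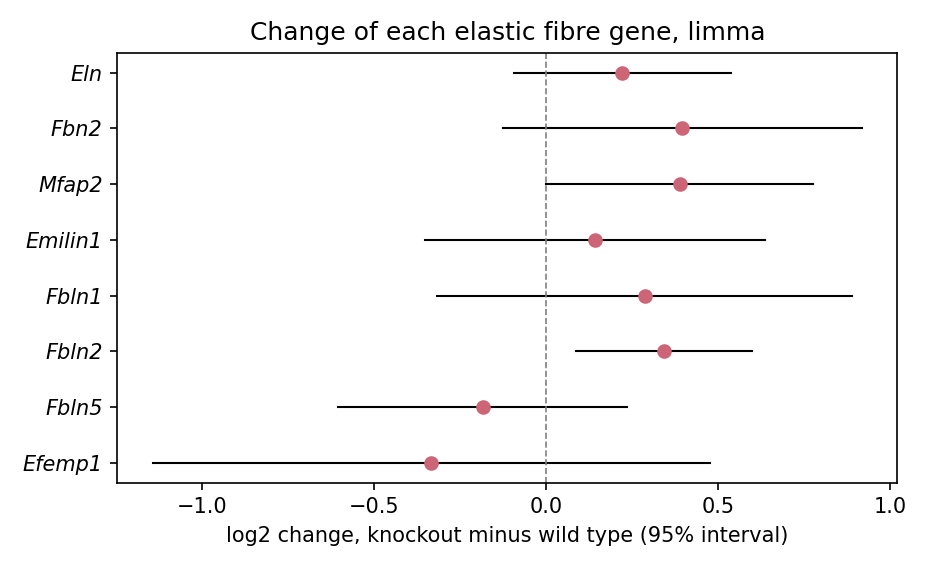
Log2 change of each elastic fibre gene, knockout minus wild type (horizontal axis), with its 95% interval from limma (lines). The intervals of Fbln2 and, by a margin of less than 0.01, Mfap2 lie above 0, and the other 6 span it.

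In all, 0 of the 8 genes passed at an adjusted p of 0.05, where 0.995% of all genes tested did. At an unadjusted p of 0.05, 2 of 8 (Fbln2 and Mfap2) were higher and 0 lower, against 8.16% of all genes higher and 10.3% lower. By limma on second quantile-normalized values 1 of 8 reached that level, and after median centring 0 did, with 0 to 3 when 1 array was left out. Groups did not overlap in 1 of 8, with 25% of all genes not overlapping in either direction and 11.1% higher without overlap. The mean difference was positive in 6 of 8, against 50% of all genes, and the median change was 0.25, against 5.3e-05 over all genes. Without knockout array 3 the median was 0.11.

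The knockouts were spread more widely than the wild types, in this list and in others described below. The SD over 3 knockout arrays exceeded that over 3 wild types in 8 of 8 members, and in 12437 of 16487 genes. It did so in 62 of 74 related genes, 10 of 10 macrophage, 9 of 10 tendon and 8 of 9 endothelial markers. Among fat cell markers it did so in 2 of 8. The median SD of the members was 0.46 in knockouts and 0.091 in wild types, against 0.16 and 0.091 over all genes. Knockout array 3 held the highest or lowest of the 6 values in 7 of 8 members, which it did in 44.6% of all genes. It was highest for 4 and lowest for 3. Knockout array 1 was highest for the remaining 4, Fbln1, Fbln2, Fbln5 and Efemp1, all fibulins, and lowest for 0 (22.2% and 29.3% of all genes). Knockout array 2 was lowest for 1 member, Emilin1, and highest for 0.

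**Figure D3:**
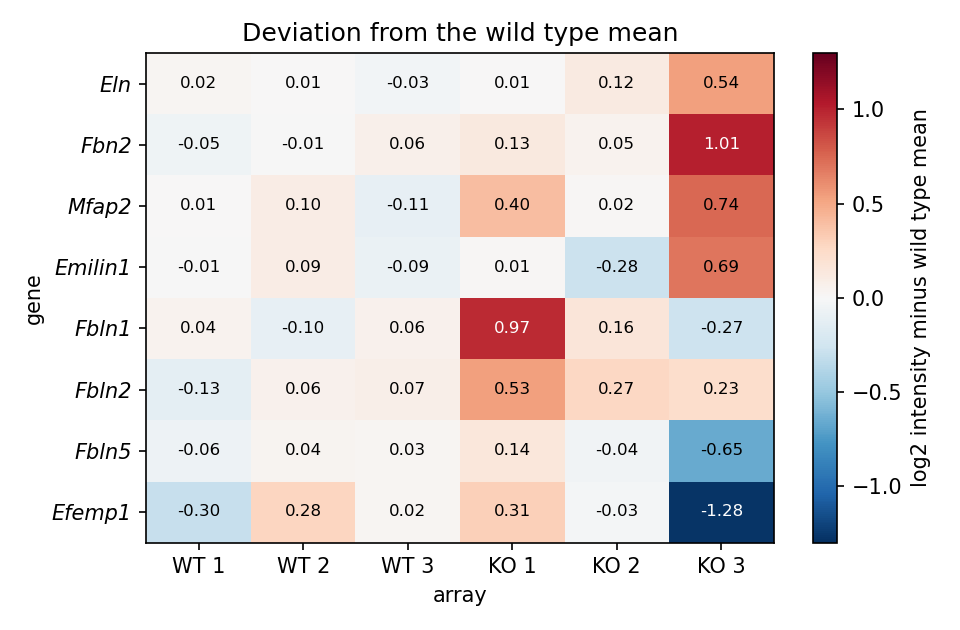
Log2 intensity of each elastic fibre gene (rows) in each array (columns) minus the gene's wild type mean, in colour and numbers. Knockout array 3 is at 0.54 to 1.01 for Eln, Fbn2, Mfap2 and Emilin1 and at -1.28 to -0.27 for Fbln1, Fbln5 and Efemp1, while knockout array 1 is at 0.14 to 0.97 for the 4 fibulins.

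Markers of other cell types moved between the same arrays. Of all genes, 23.4% were lowest and 21.1% highest in knockout array 3, and 22.2% were highest in knockout array 1. Endothelial markers read lowest of all arrays in knockout array 3 for 8 of 9 genes. The summed intensity of endothelial markers was 2671 there, 4400 and 4409 in knockout arrays 2 and 1, and 3429 to 3789 in wild type. Fibroblast and fibro-adipogenic progenitor markers were highest in knockout array 1 for 8 of 11 genes, with a summed intensity of 19944, against 13681 to 15723 in the other knockouts and 13534 to 15202 in wild type. Of the 11 genes, 10 had positive changes. Smoc2 went the other way, at -0.63 ± 0.14 (SE; limma adjusted p = 0.0767), with all knockouts below all wild types. Sums of this kind weigh the brightest probe sets most. Tcf4, counted among these markers, was higher without overlap, at 0.39 ± 0.12 (SE; limma adjusted p = 0.136). Its specificity for these cells was not tested. Dcn, which made up 9067 of the sum in knockout array 1, also stands in a list of related genes below. Tendon markers were highest in knockout array 1 for 7 of 10 genes, and their summed intensity was 5731 to 10404 in knockouts and 3595 to 5269 in wild type. Macrophage markers were highest there for 10 of 10 genes (3201 to 5799 against 2304 to 2572). Smooth muscle and pericyte markers had positive changes in 11 of 12 genes, 5 of them at an unadjusted p under 0.05, and were highest in knockout array 3 for 6. Their summed intensity was 9748 to 10341 in knockouts and 9610 to 10128 in wild type. Des, which muscle fibres also express, made up 3707 to 4591 of it in knockouts and 4736 to 4865 in wild type. Without Des, left out after its values were seen, the other 11 genes summed to 5695 to 6059 in knockouts and 4766 to 5391 in wild type, with no overlap. Fat cell markers went the other way: 8 of 8 had negative changes, with a median of -0.46 and 3 of them lower at an unadjusted p under 0.05. Their sums overlapped (2719 to 3186 in knockouts, 2720 to 4581 in wild type). Relative to each gene's wild type mean, these markers averaged -0.64 in wild type array 1 and 0.27 and 0.37 in wild type arrays 2 and 3. In the knockouts they averaged -0.67 to -0.49, so wild type array 1 was as low as the knockouts. Schwann cell markers summed to 1467 to 2470 in knockouts and 1483 to 1896 in wild type, and satellite cell markers to 459.1 to 558.2 and 455.1 to 455.7. The groups overlapped in each of the 5 satellite cell genes. Of these 5, 4 had positive changes, and Calcr was lower at an unadjusted p under 0.05 by limma. At an unadjusted p under 0.05 by limma, 7 of 10 macrophage, 4 of 10 tendon and 4 of 11 fibroblast and progenitor markers were higher. At that level 1 fibroblast and progenitor marker was lower, and 0 endothelial or Schwann cell markers passed in either direction. Over all genes, 8.16% were higher and 10.3% lower. None of these markers was at 0 on any array. The part of these cell types in the elastic fibre values was not tested.

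Further genes of elastic fibre biology were taken from 7 lists, with 74 genes measured of 80 symbols listed. Loxl2, Fkbp10 and Serpina1a had no probe set named for them alone, and Adamtsl6, Mkl1 and Mkl2 are other names of Thsd4, Mrtfa and Mrtfb, which were measured. None of the 74 passed at an adjusted p of 0.05 by limma, while 31 were higher and 2 lower at an unadjusted p of 0.05 (8.16% and 10.3% of all genes). The change was positive in 57 of 74, with a median of 0.19. Without knockout array 2, 16 of them passed, 15 higher and 1 lower, and 1 of the 8 elastic fibre genes, where 6.17% of all genes passed in that fit. The list members named are the 2 with the smallest p in each list, and any further name was chosen after its values were seen.

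Other proteins of elastic fibres and microfibrils had a median change of 0.54 over 12 genes, 11 of them positive, with 6 higher and 0 lower at an unadjusted p of 0.05. Bgn, the proteoglycan biglycan, read 9.95, 9.98 and 10.06 in wild type and 11.10, 10.44 and 11.47 in the knockouts. All knockouts were above all wild types, with array 2 the nearest. The difference was 1.01 ± 0.22 (SE; limma adjusted p = 0.0752), 0.78 without knockout array 3 and 1.29 without array 2. Vcan, versican, a large proteoglycan that binds fibrillin and fibulins, had a difference of 0.89 ± 0.20 (SE; limma adjusted p = 0.0767). Among microfibril-associated proteins, Mfap4 was at 0.96 ± 0.22, Mfap5 at 0.64 ± 0.20 and Mfap3 at -0.015 ± 0.10 (SE; limma adjusted p = 0.0818, 0.152 and 0.960). The groups overlapped in Mfap5 and Mfap3, and Mfap3 had the only negative change of the 12.

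Cross-linking and tropoelastin handling genes had a median of 0.30 over 8 genes, 5 of them higher and 0 lower at an unadjusted p of 0.05. Lox, the lysyl oxidase that cross-links elastin and collagen, read 7.78, 7.64 and 7.82 in wild type and 8.94, 7.94 and 8.95 in the knockouts. Arrays 1 and 3 were each more than 1 unit above the wild types, and array 2 was just above them. The difference was 0.87 ± 0.24 (SE; limma adjusted p = 0.124), and 1.20 without knockout array 2, where it passed (adjusted p = 0.00287). In that fit 6.17% of all genes passed, against 0.995% with all arrays. Loxl1, a lysyl oxidase that acts with fibulin 5 on elastin, was at 0.43 ± 0.15 (SE; limma adjusted p = 0.188), and overlapped with wild type in knockout array 2.

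Latent TGF-beta binding proteins and TGF-beta ligands were positive in 7 of 7, with a median of 0.21 and 3 higher at an unadjusted p of 0.05. Tgfb1 was at 0.39 ± 0.0998 and Ltbp2, which binds fibrillin microfibrils, at 0.41 ± 0.17 (SE; limma adjusted p = 0.105 and 0.245). Ltbp2 was at 0.22 without knockout array 3. ADAMTS and ADAMTSL proteins, a secreted family with members that bind microfibrils, had a median of 0.088 over 10 genes, 4 of them higher and 0 lower at an unadjusted p of 0.05. Adamtsl1 read 6.69, 6.62 and 6.62 in wild type and 7.10, 7.06 and 7.01 in the knockouts, with both groups tight and apart. The difference was 0.41 ± 0.087 (SE; limma adjusted p = 0.0697). Adamts10, which binds fibrillin, was at 0.37 ± 0.13 (SE; limma adjusted p = 0.177), and at 0.24 without knockout array 3.

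Enzymes that degrade elastin, taken with their inhibitors, had a median of 0.31 over 14 genes, with 7 higher and 0 lower at an unadjusted p of 0.05. Ctsk, cathepsin K, a potent elastase of macrophages and fibroblasts, read 6.99, 6.80 and 6.88 in wild type and 8.65, 7.19 and 8.29 in the knockouts. The groups did not overlap, and knockout array 2 was again nearest to wild type. The difference was 1.15 ± 0.31 (SE; limma adjusted p = 0.117). Mmp2, gelatinase A, was at 0.72 ± 0.19 (SE; limma adjusted p = 0.109). Mmp12, the macrophage elastase, was at 0.17 ± 0.15, and Elane, neutrophil elastase, at 0.12 ± 0.11 (SE; limma adjusted p = 0.615 and 0.621). Of the inhibitors, Timp1 had the largest change of the list, at 1.28 ± 0.38, and Timp2 was at 0.36 ± 0.11 (SE; limma adjusted p = 0.133 for each). Both were higher without overlap. Timp3 was at -0.042 ± 0.15 and Timp4 at -0.29 ± 0.18 (SE; limma adjusted p = 0.927 and 0.437).

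Integrins that bind elastic fibre proteins were positive in 9 of 9, with a median of 0.28 and 5 higher at an unadjusted p of 0.05. Itgb1 was at 0.37 ± 0.098 and Itgav at 0.39 ± 0.11 (SE; limma adjusted p = 0.109 and 0.127). Regulators of elastin transcription had a median of 0.020 over 14 genes, 7 of them positive, with 1 higher (Igf1) and 2 lower (Srf and Mrtfa) at an unadjusted p of 0.05. Igf1, a growth factor that raises elastin synthesis in smooth muscle cells, read 8.26, 8.45 and 8.64 in wild type and 9.56, 8.92 and 9.15 in the knockouts, without overlap. Its difference was 0.76 ± 0.17 (SE; limma adjusted p = 0.0759). Srf, serum response factor, was at -0.29 ± 0.098 (SE; limma adjusted p = 0.168), with all knockouts below all wild types.

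**Figure D4:**
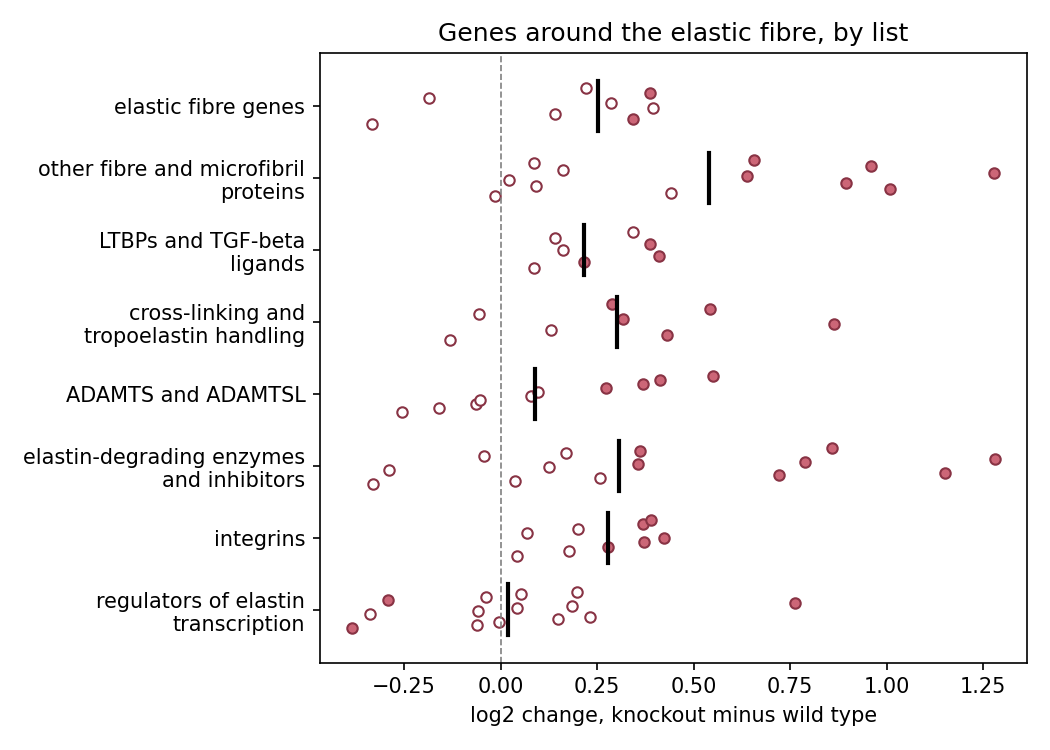
Log2 change, knockout minus wild type, of each gene in the elastic fibre list and in the 7 lists of related genes (rows); vertical bars are list medians, and filled points have an unadjusted p under 0.05. The medians run from 0.020 for regulators of elastin transcription to 0.54 for other fibre and microfibril proteins, with the elastic fibre list at 0.25.

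For most members 1 knockout array set the size or the sign of the mean difference. Without knockout array 3, Eln, Fbn2, Emilin1, Fbln5 and Efemp1 lay between -0.13 and 0.14. Fbln2 and Fbln1 were then at 0.40 and 0.56, with adjusted p of 0.166 and 0.240 by limma. Fbln2, Mfap2, Eln and Fbn2 kept a positive change in each of the 6 fits with 1 array left out.

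**Figure D5:**
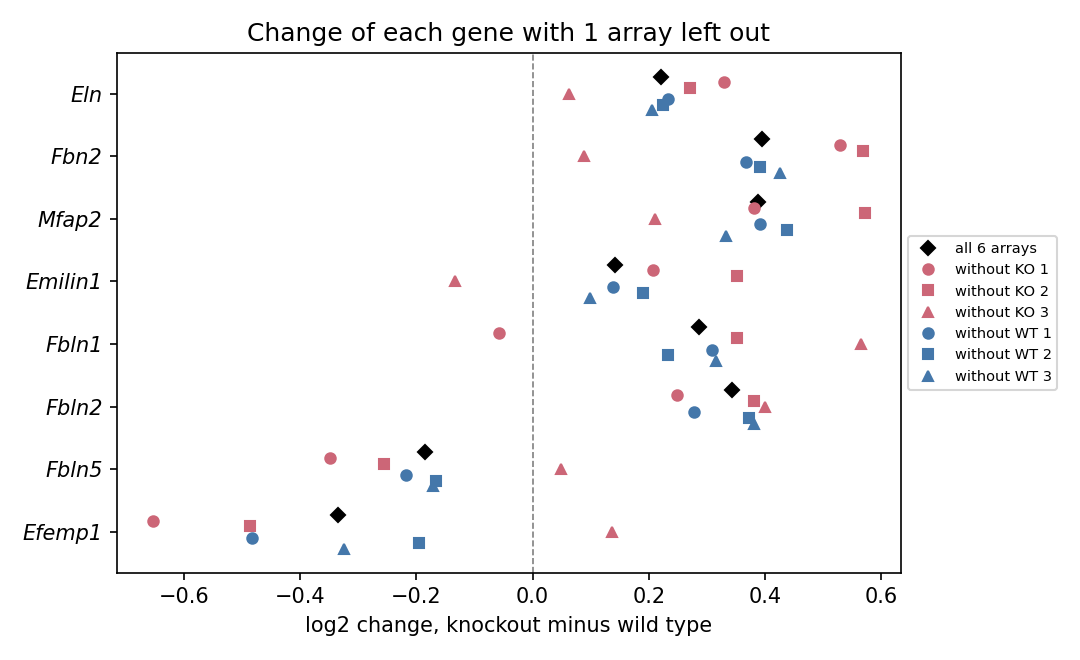
Log2 change of each elastic fibre gene, knockout minus wild type, with all 6 arrays (diamonds) and with 1 knockout (red) or 1 wild type (blue) array left out; symbols mark array number. Emilin1, Fbln5 and Efemp1 cross 0 without knockout array 3, and Fbln1 crosses it without knockout array 1.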

How the data were processed

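Total RNA was hybridised to Affymetrix whole-transcript arrays, 1 per mouse. The deposited values are intensities on a linear scale (1.59 to 13565.76 over 35556 probe sets). Per the submitters' processing notes, the authors used Affymetrix Expression Console 1.3.0.187 and its RMA method. RMA shrinks differences between low values. For the array probe sets, no genome build is stated in the labels or notes. Such values carry no depth, so precision rests on the number of arrays.

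Log2 was taken with no offset. Gene symbols came from the platform annotation (21789 with 1 symbol, 1621 with several, 12146 unnamed), and the one with the highest mean stood for a gene. Genes with a mean under the 25th percentile of probe sets (3.90) were left out, 3451 of 19938. The test was limma 3.58.1 under R 4.3.3: a linear model on genotype, trended eBayes, two-sided p-values and Benjamini-Hochberg adjustment. The procedure was tested on simulated data with the same spread in both groups, unlike the members here, whose spread was wider in knockouts. The members, lists and rule for named genes (members, Sparc, and the 2 smallest p per list where none passed) were chosen with earlier results of these data known. Alternatives covered normalization, filter, variance prior, array weights, probe-set averaging, a pseudocount, a replicate block and arrays left out. Upstream sequences are from RefSeq.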

Additional observations from a re-analysis of the deposited data

How the results depend on the processing

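Over 16 alternatives, Eln, Fbln2 and Mfap2 kept their direction in 16, and Fbn2 in the 15 that tested it (the stricter filter removed it). Sign changes came with 1 array left out. Fbln1 ran from -0.058 (without knockout array 1) to 0.56, Fbln5 from -0.35 to 0.049, Efemp1 from -0.65 to 0.14 and Emilin1 from -0.13 to 0.35, each of the last 3 changing sign without knockout array 3. The number of members called by limma ran from 0 to 1 with 1 array left out, the 1 being Mfap2 without knockout array 2, and was 0 in all other alternatives. The 74 related genes had 0 to 16 calls with 1 array left out, 1 with array weights (Adamtsl1) and 1 with the replicate block (Mfap4). Of all genes, 164 passed, against 103 after median centring, 329 with array weights and 27 to 1017 with 1 array left out (32, 30 and 27 without wild type arrays 1, 2 and 3, and 1017 without knockout array 2). The causes were not tested. With the replicate block 123 passed, of which 91 were among the 164. Deviations of same-numbered arrays correlated at 0.0088, 0.082 and -0.020, and not every array correlated best with its own number, so the numbers were not taken as pairs. The number of arrays, 3 a group, limits the precision.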
